A study of Mus musculus with 12 samples.

Results

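The TRIM and RNF genes encode RING-type ubiquitin ligases and their relatives, and here they were taken as every gene in either of 2 m6A peak lists whose symbol is Trim or Rnf followed by a digit. The rule found 103 of the 14078 genes with a peak, namely 39 TRIM genes and 64 RNF genes. They carried 299 of 36682 peaks in wild-type (WT) cells and 340 of 41153 peaks in Mettl3 knockout (KO) cells. Both genotypes were BV2 cells, an immortalized mouse microglial line, and both had been given lipopolysaccharide (LPS), the bacterial cell wall component sensed by TLR4, so no unstimulated cells enter the comparison. Poly(A) RNA was fragmented and pulled down with an antibody against N6-methyladenosine (m6A), the methylated adenosine that METTL3 writes on mRNA. The labels list 3 immunoprecipitated (IP) and 3 input libraries for each genotype, 12 in all. The sources used here do not give the LPS dose or duration, nor how the knockout was made or whether it is 1 clone. The authors deposited 1 peak list per genotype, with the log2 of IP over input at each peak, and this log2 value is the level used throughout. A gene's value was that of its strongest peak, and a difference is always KO minus WT on that log2 scale.

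The lists hold no values per library, so no difference below has a replicate check and none was tested. Where an interval is given, it covers counting error or the spread among genes. The read depth behind each peak is unknown. RNA amounts were not analysed here, so Mettl3 itself could not be checked by its level, and a peak that was missing because the transcript was scarce cannot be told apart from one that was missing because m6A was low. Of 12 microglial marker genes, 11 had a peak, P2ry12 being the one without. Their median KO minus WT difference was -0.07, with Cx3cr1 far from the rest (4.59 in WT, 0.63 in KO). A peak was found for 1 of 5 neuronal markers (Tubb3), 0 of 5 astrocyte markers, 1 of 5 oligodendrocyte markers (Mbp) and 0 of 6 neuroblastoma markers. Mbp had 4.11 in WT and 1.72 in KO, so it and Cx3cr1 differed by more than any TRIM or RNF gene found in both lists. The last list was included because the extraction protocol calls the cells neuroblastoma, against the BV2 of every sample's label.

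A ubiquitin ligase brings a ubiquitin-charged conjugating enzyme to its substrate, and in RING ligases a zinc-binding RING domain does so. TRIM proteins carry a RING, 1 or more B-boxes and a coiled coil, followed by a variable domain that recognises the target. Several are induced by interferon, which LPS elicits from microglia and macrophages, and they act on viral proteins or on the sensors RIG-I, cGAS and their adaptors. RNF is a naming series for RING proteins and not 1 structural family: it holds membrane-bound ligases of the endoplasmic reticulum and endosome, nuclear ligases that ubiquitinate histones, and regulators of Wnt signalling. The gene ontology terms in the authors' deposited tables show this division only in part. Innate immune response was listed for 19 of the 39 TRIM genes (48.7%) and for 2 of the 64 RNF genes (3.12%), against 1.77% of all genes with a peak. A membrane term was listed for 27 RNF genes (42.2%) and 4 TRIM genes (10.3%), against 28.7% of all genes. Ubiquitin transferase or ligase activity was listed for 29 TRIM (74.4%) and 57 RNF genes (89.1%), against 2.50% of all genes. Nucleus was listed for 19 TRIM (48.7%) and 24 RNF genes (37.5%), against 31.3% of all genes, so the nuclear term did not set RNF genes apart. Zinc ion binding was listed for 37 TRIM (94.9%) but 10 RNF genes (15.6%), though a RING domain binds zinc. The terms are therefore incomplete for RNF genes, and a low RNF share can reflect missing entries.

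Since part of the TRIM family is interferon-induced, the promoters were searched for the core of the interferon-stimulated response element (ISRE), the site bound by ISGF3 and IRF factors. The letters GAAA, any 2 bases and GAAA again were looked for on both strands of the RefSeq promoter windows (GRCm38.p6, 250 bases before to 50 bases after each start). Overlapping matches were each counted as a match. Of all windows, 1131 of 32851 (3.44%) held it, and of all genes with a window, 1079 of 27025 (3.99%). Among interferon-induced TRIM genes that had both a peak and a window, 6 of 8 held it (75%, 95% Wilson interval 40.9 to 92.9), and over the whole interferon-induced list, with or without a peak, 8 of 16 did (50%, 28.0 to 72.0). The 6 with a peak were Trim12a, Trim12c, Trim21, Trim26, Trim30a and Trim30d, while Trim25 and Trim56 did not. In the remaining TRIM genes 1 of 20 held it (Trim2), in the innate immune RNF genes 0 of 10, and in the other RNF genes 3 of 41 (Rnf20, Rnf121 and Rnf146). The 6 interferon-induced genes are shown first, since the TRIM family holds such a group, and Trim2 and Rnf146 follow as the matching members with large KO minus WT differences. Each sequence is 30 bases on the strand of its gene, 5′ to 3′, with the matched letters in capitals (TTTC runs are the motif on the opposite strand).
Trim21: agaggaaactGAAAGTGAAAtttggactgc
Trim26: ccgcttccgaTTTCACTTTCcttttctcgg
Trim12a: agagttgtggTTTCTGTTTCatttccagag
Trim12c: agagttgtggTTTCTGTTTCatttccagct
Trim30a: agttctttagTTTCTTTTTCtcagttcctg
Trim30d: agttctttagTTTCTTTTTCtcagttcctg
Trim2: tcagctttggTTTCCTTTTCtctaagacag
Rnf146: ctaaggcatgGAAACTGAAAtgacacattg
In GRCm38.p6 they lie at chr7:102565444-102565473 (Trim21, minus strand), chr17:36836976-36837005 (Trim26, plus strand), chr7:104315466-104315495 (Trim12a, minus), chr7:104353359-104353388 (Trim12c, minus), chr7:104465210-104465239 (Trim30a, minus), chr7:104507871-104507900 (Trim30d, minus), chr3:84212791-84212820 (Trim2, minus) and chr10:29357826-29357855 (Rnf146, minus). The Trim12a and Trim12c stretches shared 28 of 30 bases and those of Trim30a and Trim30d all 30, so these paralog pairs are not independent matches. Trim21 and Trim26 each held a second, overlapping match, and Trim30a had another match at a second start. A match describes the letters and does not show that a factor binds there.

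Both families had their peaks in both genotypes. Of the 39 TRIM genes 38 had a peak in both lists (97.4%, 86.8 to 99.5), and of the 64 RNF genes 61 did (95.3%, 87.1 to 98.4), against 87.5% of all genes with a peak. Levels were lower in KO for most of them. The TRIM median was 2.10 in WT and 1.31 in KO, and the RNF median was 1.57 in WT and 1.16 in KO, while over all genes it was 1.36 and 1.07. The median difference was -0.59 for TRIM genes (95% interval of the median -0.91 to -0.34, 38 genes), -0.39 for RNF genes (-0.58 to -0.20, 61 genes) and -0.25 for all 12323 genes in both lists. The intervals of the 2 families overlapped.

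KO was the lower of the 2 for 32 of 38 TRIM genes (84.2%) and 50 of 61 RNF genes (82.0%), beside 73.4% of all genes. A difference of -1 or beyond, a halving of the enrichment or more, was found for 9 TRIM genes (23.7%) and 5 RNF genes (8.20%), beside 9.54% of all genes. The RNF share thus lay near the background and the TRIM share above it. None of the 99 genes was higher in KO by 1 or more, where 0.714% of all genes were. Peaks enriched at least 4-fold were present in 20 TRIM genes (51.3%) and 23 RNF genes (37.1%) in WT, against 28.0% of all genes. In KO they were present in 5 TRIM genes (13.2%) and 7 RNF genes (11.1%), against 11.4%, so the families stood above the background in WT and close to it in KO.

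**Figure D1:**
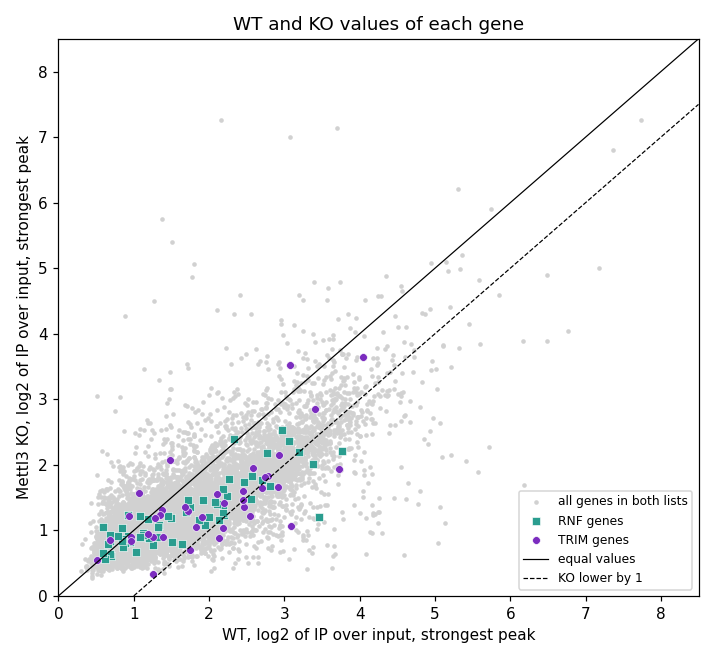
Each point is a gene with a peak in both lists, with the log2 of IP over input at its strongest peak in WT cells (x) and in Mettl3 KO cells (y). Most TRIM (purple circles) and RNF genes (green squares) lie below the solid line of equal values, and 9 TRIM and 5 RNF genes lie on or under the dashed line that marks a KO value lower by 1.

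The interferon-induced TRIM genes had peaks for 9 of the 17 list members, and Trim5, Trim6, Trim30b, Trim30c, Trim34a, Trim34b, Trim38 and Trim69 had none in either list. Of the 9 with a peak, 8 were lower in KO and Trim12c was higher. Their median was 2.10 in WT and 1.42 in KO with a median difference of -0.55 (-0.91 to -0.25), close to the -0.63 of the other 29 TRIM genes in both lists. None was lower by 1 or more, whereas 9 of the other TRIM genes were, so the larger TRIM share reported above came from members outside the interferon-induced list. By peaks of at most 1000 bases the interferon-induced genes had a median difference of -0.04 over 7 genes. Of these, 5 were lower in KO (71.4%, beside 58.2% of all genes). Trim25, Trim26 and Trim56 then differed by -0.03, -0.04 and 0.03, and Trim21 by -0.55.

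Trim56, a ligase linked to cGAS and STING signalling, had the highest WT value of the group, 3.40 in WT and 2.86 in KO. Trim25, which ubiquitinates RIG-I, had 2.45 in WT and 1.47 in KO and the largest difference, -0.98. Trim26 had 2.20 in WT and 1.42 in KO, and Trim21, the cytosolic antibody receptor, had 1.91 in WT and 1.20 in KO. These 4 genes had their strongest peak annotated as 3′UTR in both lists and at overlapping places. The annotation gives 1 label to each peak, and these peaks spanned from 3303 to 13043 bases.

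Trim14, a MAVS adaptor that lacks a RING, had 1.25 in WT and 0.34 in KO, but its strongest peaks lay at different places, in the 5′UTR in WT and in an exon in KO. Its strongest overlapping pair of peaks had 0.45 in WT and 0.34 in KO. The direction was kept and most of the difference was not.

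The Trim12 and Trim30 genes are mouse paralogs of the Trim5 cluster on chromosome 7. Trim12c was the exception of the group, with 3.07 in WT and 3.52 in KO over nearly the same 3′UTR stretch (starting at 104339229 in WT and 104339154 in KO, both ending at 104340953, minus strand). Trim12a had 2.10 in WT and 1.55 in KO. Trim30d had 1.72 in WT and 1.30 in KO, and Trim30a, which restrains TLR4 signalling through TAB2 and TAB3, had 1.20 in WT and 0.94 in KO. The sources used here do not say how reads that fit several paralogs were placed, so the values of these 4 are uncertain. Without them the median difference of the interferon-induced group was -0.78 over 5 genes.

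**Figure D2:**
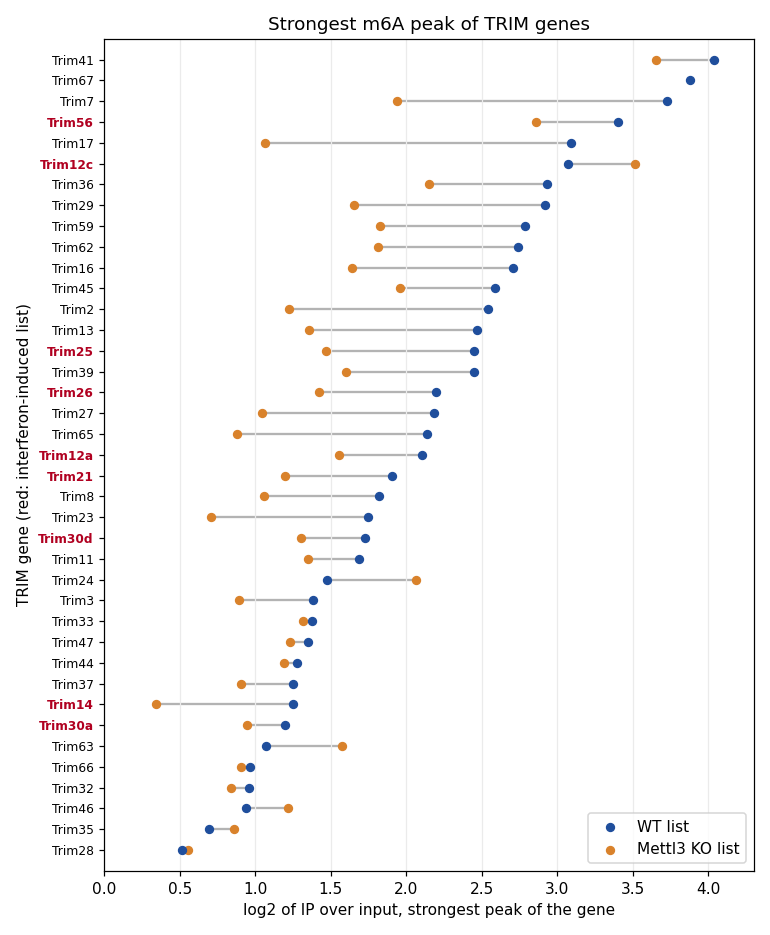
Each row is a TRIM gene, with the log2 of IP over input at its strongest peak in WT (blue) and Mettl3 KO (orange) joined by a line, and interferon-induced members have red labels. The orange point lies left of the blue one for 32 of the 38 genes with both values, and Trim67 has a WT point with no KO partner.

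Among the other TRIM genes, Trim41 had the highest value of the family in both lists, 4.04 in WT and 3.65 in KO. Its peaks covered the same stretch of chromosome 11 (from 48807154 in WT and 48807454 in KO, both to 48817217, minus strand). The deposited annotation, which gives each peak 1 label, called that stretch 3′UTR in WT and 5′UTR in KO. Trim67, a brain-expressed relative of Trim9, ranked next in WT at 3.88 and had no KO peak. Its peak lay in the 3′UTR (chromosome 8, 124831145 to 124831619, plus strand, deposited adjusted p = 6.06e-18), and its second WT peak was at 0.76.

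The 9 TRIM genes lower by 1 or more were Trim17, Trim7, Trim2, Trim29, Trim65, Trim27, Trim13, Trim16 and Trim23. Trim7, which binds glycogenin, had 3.73 in WT and 1.94 in KO at overlapping 3′UTR peaks. Trim2, a neuronal ligase that binds neurofilament light chain, had 2.54 in WT and 1.22 in KO. Trim29 had 2.92 in WT and 1.65 in KO.

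Of the 9 differences, 2 compared separate places. Trim17 had the largest, -2.03, from a 3′UTR peak at 3.09 in WT and a 5′UTR peak at 1.06 in KO that also lay over H2aw. Its strongest overlapping pair had 1.04 in WT and 1.06 in KO, so the WT 3′UTR peak had no KO counterpart and the shared 5′UTR place had nearly the same value in both. Trim65, which acts on the RNA sensor MDA5, had 2.13 in WT at an exon peak and 0.88 in KO at a 3′UTR peak that also lay over Trim47. Its overlapping pair had 1.80 in WT and 0.88 in KO.

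The TIF1 genes, which are nuclear cofactors with a bromodomain, had the median difference nearest to 0 of the TRIM lists. Trim28, the corepressor of KRAB zinc finger proteins, had 0.51 in WT and 0.55 in KO, the lowest WT value of the family. Trim33 had 1.38 in WT and 1.31 in KO. Trim24 had 1.48 in WT at a 3′UTR peak and 2.07 in KO at a 5′UTR peak, the largest positive difference of the family at 0.59. The WT peaks that overlapped this KO peak were at 1.20 and 1.16. Trim66 had 0.96 in WT and 0.90 in KO, and the median difference of the 4 was -0.01.

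Of the NHL-repeat genes, Trim3 had 1.38 in WT and 0.89 in KO, and Trim32 had 0.96 in WT and 0.84 in KO. Trim71 had no peak. Of the microtubule- and muscle-associated genes, Trim36 had 2.93 in WT and 2.15 in KO. Trim63, the muscle ligase MuRF1, had 1.07 in WT and 1.57 in KO at different places, and Trim46, which bundles microtubules in the axon, had 0.94 in WT and 1.22 in KO. Trim35 was the remaining TRIM gene with a higher KO value, 0.69 in WT and 0.86 in KO, at a peak with identical coordinates in both lists.

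In the RNF genes, 11 of 13 innate immune members had a peak, Rnf125 and Rnf144a being the ones without. Their median was 1.20 in WT and 1.04 in KO with a median difference of -0.32 (-0.93 to 0.14). In KO 8 were lower (72.7%, beside 73.4% of all genes), 3 higher, and none lower by 1 or more. By peaks of at most 1000 bases 7 of 8 genes were higher in KO and 1 lower, where 58.2% of all genes were lower. The median difference was then 0.16, but that measure can compare different places. At the strongest overlapping pair 6 of 10 genes were lower in KO (60%, beside 72.8% of all genes) and 4 higher. The median difference of those pairs was -0.24. Rnf135, which activates RIG-I beside Trim25, had 2.19 in WT and 1.24 in KO, a difference of -0.96 close to that of Trim25. Its strongest peak spanned 15267 bases in WT and 625 in KO, and these overlapped. By peaks of at most 1000 bases its difference was 0.23, but those peaks lay at different places. Rnf185, a ligase of the endoplasmic reticulum that ubiquitinates cGAS, had 2.19 in WT and 1.26 in KO. Rnf144b had 2.97 in WT and 2.53 in KO, the highest of the group in both lists.

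Rnf213, a very large interferon-induced ATPase and ligase that coats cytosolic bacteria by ubiquitinating LPS, had 1.92 in WT and 1.47 in KO at a peak with identical coordinates (chromosome 11, 119437618 to 119443613, plus strand). It carried 7 peaks in WT and 10 in KO. Rnf31, the catalytic subunit HOIP of the linear ubiquitin chain assembly complex, had 0.88 in WT in the 5′UTR and 0.81 in KO in the 3′UTR, where the KO peak also lay over Irf9. Rnf114 had 1.25 in WT in the 5′UTR and 0.77 in KO in the 3′UTR, but 0.68 in WT and 0.77 in KO at its overlapping pair, where the direction turned. Rnf19b had 1.20 in WT and 0.88 in KO, and Rnf34 had 1.19 in WT and 1.18 in KO. Rnf128 had 0.84 in WT and 1.04 in KO, Rnf5, which ubiquitinates STING, had 0.66 in WT and 0.80 in KO, and Rnf166 had 0.86 in WT and 0.87 in KO. The members with WT values under 1 therefore differed by at most 0.20 in either direction.

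**Figure D3:**
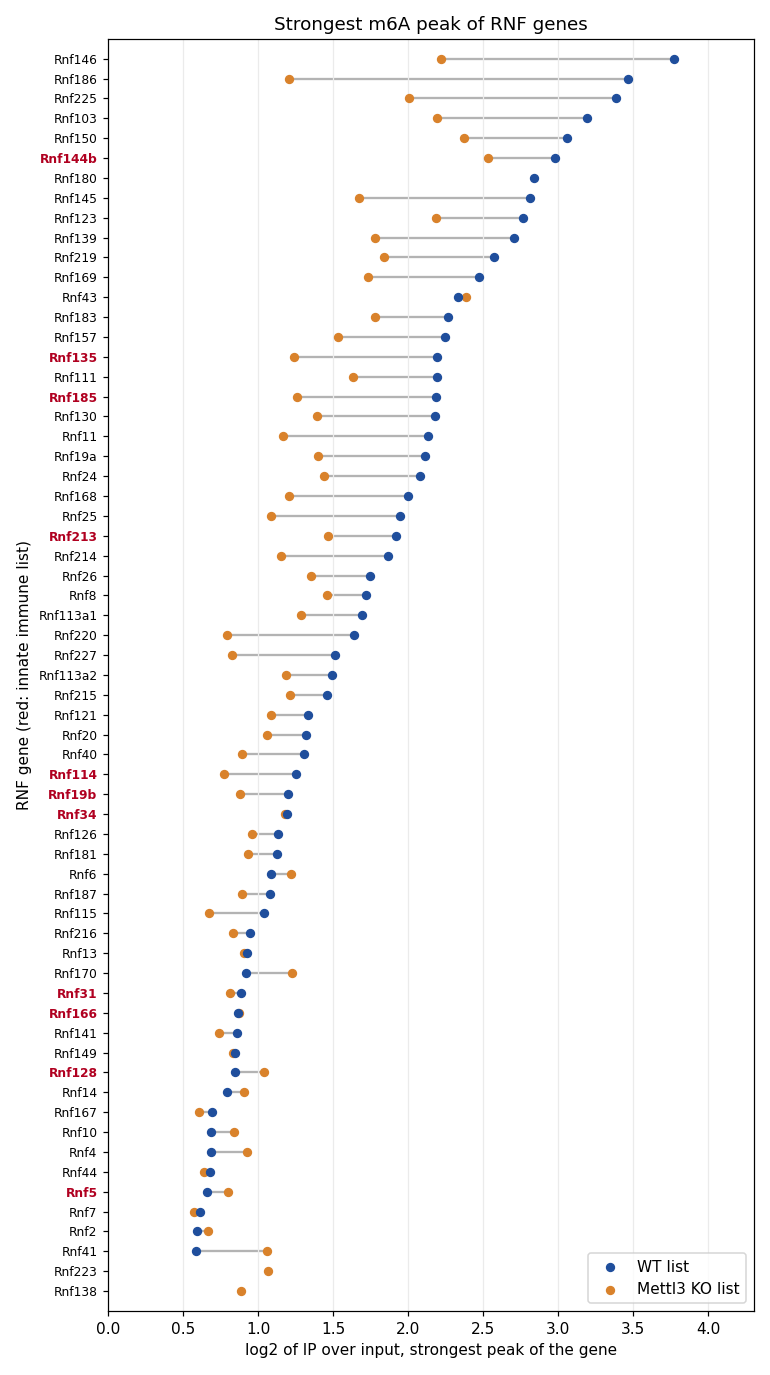
Each row is an RNF gene, with the log2 of IP over input at its strongest peak in WT (blue) and Mettl3 KO (orange) joined by a line, and innate immune members have red labels. The orange point lies left of the blue one for most genes, the widest gap is that of Rnf186, and 1 of the 64 RNF genes is not drawn.

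Rnf146, which reads poly(ADP-ribose) and marks axin for destruction in the Wnt pathway, had the highest WT value of the RNF genes, 3.77, and 2.22 in KO. Its peaks spanned 15318 bases in WT and 15818 in KO, and its strongest peak of at most 1000 bases had 1.06 in WT and 1.13 in KO. Rnf43, a membrane ligase that removes the Wnt receptor Frizzled, had 2.33 in WT and 2.39 in KO, at a peak of 37204 bases in WT and 800 in KO. By peaks of at most 1000 bases it had 1.002 in WT and 2.39 in KO, a difference of 1.38. Those short peaks lay at different places, in an exon in WT and in the 5′UTR in KO. The values 2.33 and 2.39 came from overlapping peaks. Rnf220 had 1.64 in WT and 0.79 in KO.

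The 5 RNF genes lower by 1 or more included Rnf186, Rnf146, Rnf225 and Rnf145, with Rnf103, a ligase of the endoplasmic reticulum, just short at 3.19 in WT and 2.19 in KO. Rnf186, known from genetic studies of ulcerative colitis, had the largest difference of either family, -2.26, from 3.46 in WT and 1.21 in KO. Rnf225 had 3.39 in WT and 2.01 in KO, and Rnf145, a sterol-regulated ligase of the endoplasmic reticulum, had 2.81 in WT and 1.67 in KO. In each of these the strongest peaks of the 2 lists overlapped. For Rnf186 both peaks were short, 675 bases in WT and 475 in KO, and both lay in the 5′UTR.

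The chromatin and DNA damage ligases were lower in KO for 6 of 8 genes (75%, near the 73.4% of all genes), with a median difference of -0.34 (-0.79 to 0.24). Rnf169 had 2.47 in WT and 1.73 in KO, and Rnf168, which ubiquitinates histone H2A at double-strand breaks, had 2.00 in WT and 1.20 in KO. Rnf111, the SUMO-targeted ligase Arkadia, had 2.19 in WT and 1.63 in KO. Rnf8, which acts upstream of Rnf168, had 1.72 in WT and 1.46 in KO. The H2B ligase partners Rnf20 and Rnf40 had 1.32 in WT and 1.06 in KO, and 1.31 in WT and 0.89 in KO. Rnf2, the Polycomb ligase RING1B, and Rnf4, another SUMO-targeted ligase, had the low values 0.59 and 0.68 in WT and 0.66 and 0.92 in KO.

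The largest positive RNF differences were those of Rnf41 (0.59 in WT, 1.06 in KO), Rnf170 (0.92 in WT, 1.23 in KO), Rnf4, Rnf128 and Rnf10 (0.68 in WT, 0.84 in KO). For Rnf41 and Rnf170 the strongest peaks lay at different places. At the strongest overlapping pair the difference of Rnf41 was 0.09 and that of Rnf170 turned to -0.28. The RNF genes found in 1 list were Rnf180, with 2.84 in WT and no KO peak, and Rnf138 and Rnf223, with 0.88 and 1.07 in KO and no WT peak. Together with Trim67, 2 of the 103 genes were found in WT alone, where the share of all genes was 7.44%, and 2 in KO alone, where it was 5.03%. Rnf150, a membrane protein, had 3.06 in WT and 2.37 in KO, at a peak of 40642 bases in WT and 450 in KO. By peaks of at most 1000 bases it had 1.75 in WT and 2.37 in KO. Those short peaks did not overlap, the WT one being labelled 3′UTR and the KO one 5′UTR. The strongest peaks of any span did overlap, with a difference of -0.69.

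Most of these peaks were annotated as 3′UTR. In WT the strongest peak was annotated as 3′UTR for 34 of 39 TRIM genes (87.2%) and 44 of 62 RNF genes (71.0%), against 61.0% of all genes. In KO the shares were 29 of 38 (76.3%) and 49 of 63 (77.8%), against 62.5%. Of all genes, 16.1% in WT and 15.0% in KO had their strongest peak in a noncoding RNA exon, beside 0 TRIM and 0 RNF genes. The all-gene shares for UTRs thus include genes without a UTR, so they do not show that the families exceeded coding genes. Strongest peaks in the 5′UTR were found for 2 TRIM (5.13%, 1.42 to 16.9) and 11 RNF genes (17.7%, 10.2 to 29.0) in WT, against 11.8% of all genes. In KO they were found for 7 TRIM (18.4%, 9.22 to 33.4) and 10 RNF genes (15.9%, 8.86 to 26.8), against 11.2%, and the WT and KO intervals overlapped in both families. The KO genes included Trim41, whose stretch was nearly unchanged, and Trim17, Trim24, Trim33 and Trim63, whose strongest KO peak lay elsewhere than in WT.

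The places themselves were largely shared. Of the WT peaks, 91 of 118 in TRIM genes (77.1%, 68.8 to 83.8) and 142 of 181 in RNF genes (78.5%, 71.9 to 83.8) overlapped a KO peak by at least 1 base on the same strand, against 77.2% of all WT peaks. In the other direction 78.2% of TRIM and 74.9% of RNF peaks in KO overlapped a WT peak, against 72.9%. The strongest peaks of the 2 lists overlapped for 30 of 38 TRIM genes, with a median difference of -0.67, and for 49 of 61 RNF genes, with -0.45. These shares, 78.9% and 80.3%, lay near the 74.3% of all genes, whose median was -0.29. Where they lay apart the medians were -0.30 over 8 TRIM genes, -0.09 over 12 RNF genes and -0.16 over all.

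The difference was larger in genes with stronger peaks, in both families and over all genes. Genes were binned by the average of WT and KO. With an average under 1 the median difference was -0.06 in 5 TRIM genes, -0.02 in 18 RNF genes and -0.03 over all genes. From 1 to 1.5 it was -0.19 in 10 TRIM genes, -0.26 in 15 RNF genes and -0.25 over all. From 1.5 to 2 it was -0.78 in 11 TRIM genes, -0.71 in 14 RNF genes and -0.63 over all. At 2 or more it was -0.89 in 12 TRIM genes, -0.83 in 14 RNF genes and -0.81 over all. The medians of the 3 sets were close within each bin, the widest gap being that of TRIM genes to all genes from 1.5 to 2. Shares lower by 1 or more differed in that bin, with 4 of 11 TRIM genes (36.4%), 0 of 14 RNF genes and 15.4% of all genes. At 2 or more they were 33.3%, 35.7% and 32.8%. The upper 2 bins held 23 of the 38 TRIM genes and 28 of the 61 RNF genes.

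**Figure D4:**
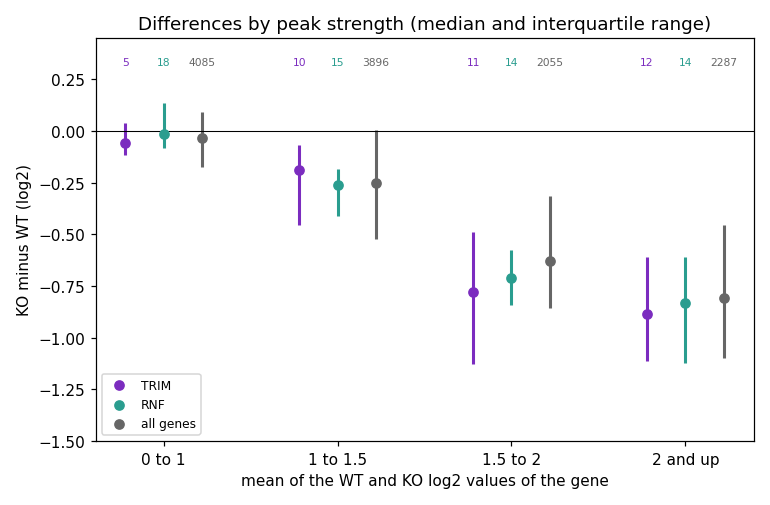
Median KO minus WT difference (log2) with its interquartile range for TRIM genes, RNF genes and all genes, in 4 bins of each gene's average level, with the number of genes printed above each bar. All 3 sets go from near 0 in the weakest bin to between -0.81 and -0.89 in the strongest.

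The span of the peaks went with the same difference. A span is the genomic distance from the first to the last base of a peak, introns included, and the median span of the strongest WT peak was 1625 bases in TRIM genes, 2348 in RNF genes and 1021 in all genes. Where both strongest peaks exceeded 1000 bases the median difference was -0.88 in 20 TRIM genes, -0.68 in 28 RNF genes and -0.55 over all genes. Where both were of at most 1000 bases it was -0.12 in 14 TRIM genes, -0.09 in 21 RNF genes and -0.07 over all. When each gene was instead given its strongest peak of at most 1000 bases, the median was -0.06 over 31 TRIM genes, -0.05 over 50 RNF genes and -0.05 over all genes. The order of WT and KO was then turned for 8 of 31 TRIM genes (25.8%) and 14 of 50 RNF genes (28.0%), against 19.1% of all genes. The short peak was picked in each list on its own, so the places compared can differ.

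Some genes had a large difference among short peaks too, and 4 of 31 TRIM genes (12.9%) and 2 of 50 RNF genes (4.00%) were lower by 1 or more on that measure, beside 4.40% of all genes. Higher by 1 or more was 1 RNF gene, Rnf43, and no TRIM gene, beside 1.58% of all genes. The short peaks of Rnf43 lay at different places in the WT and KO lists. Rnf186, Trim23 (1.75 in WT, 0.71 in KO), Trim17 and Trim65 were lower by 1 or more with their strongest peaks, which were already short. Trim12c, higher in KO by its strongest peak, was lower by its short peaks, with 2.43 in WT and 0.73 in KO. Its overlapping strongest peaks, of 1725 bases in WT and 1800 in KO, were left out by that measure. Whether its short peaks shared a place was not checked. The strongest peaks of Trim36 were short in both lists, with a difference of -0.78 under both measures.

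**Figure D5:**
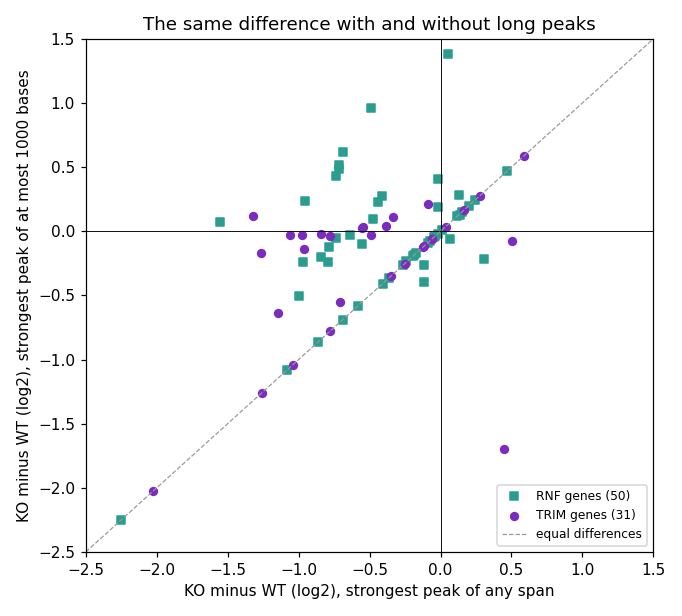
KO minus WT difference (log2) of each gene by its strongest peak of any span (x) and by its strongest peak of at most 1000 bases (y), for 31 TRIM and 50 RNF genes with both values. Points on the dashed line are genes whose strongest peaks were short already, many others lie near 0 on the y axis, and the TRIM point at the lower right is Trim12c.

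Genes that work with these ligases but carry other symbols were also measured. Of 12 such genes, all with a peak in both lists, 11 were lower in KO (91.7%, beside 73.4% of all genes) and 1 by 1 or more (8.33%, beside 9.54%), with a median difference of -0.39. Ring1, the Polycomb partner of Rnf2, had 2.50 in WT and 1.44 in KO, and Pml, the TRIM protein of nuclear bodies, had 1.70 in WT and 1.13 in KO. RIG-I (Ddx58) had 1.14 in WT and 0.73 in KO, its adaptor Mavs 1.08 in WT and 0.63 in KO, and Cgas 1.24 in WT and 0.85 in KO. Sting1 had 0.998 in WT and 0.981 in KO. The partners of Rnf31 in linear chain assembly, Sharpin and Rbck1, had 1.02 and 0.59 in WT and 0.87 and 0.68 in KO. The ubiquitin-activating and -conjugating enzymes, which supply the ligases, had a median difference of -0.16 over 35 genes, with 25 lower (71.4%) and 2 lower by 1 or more (5.71%), near or under the shares of all genes. These 2 were the pseudogene Ube2d-ps (2.62 in WT, 1.38 in KO), whose reads may be shared with its parent genes, and Ube2j2 (2.23 in WT, 1.17 in KO).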

How the data were processed

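MeRIP-seq peaks of LPS-treated BV2 cells were analysed from 1 list per genotype. The authors deposited, per the file headers, each peak's log2 of IP over input with its p-value and adjusted p-value. Per the submitters' processing notes, HISAT2, StringTie, HOMER, edgeR, FastQC and fastp were used, with no versions listed. For the peak caller, the genome build of the lists and any pooling of the 3 libraries of a group, the sources used here give nothing. The IP over input values carry no depth, and 2 peaks of these genes had an adjusted p over 0.05.

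The list starts count from 0 (5098 WT and 5186 KO peaks begin at a gene start on that reading), so 1 was added. Genes were given their strongest peak, all calculations ran over all genes, and shares have 95% Wilson intervals. A peak lying over a second gene on its strand was counted for the gene the authors named. Overlap used bedtools 2.31.1 with Python 3.11.15, pandas 2.3.3, numpy 2.4.6 and SciPy 1.17.1, and the calculations were tested on simulated data. No replicate values exist, so no test was run. Alternatives were peaks of at most 1000 bases, the mean over peaks, the strongest overlapping pair, an adjusted p of at most 0.001, centring on all genes, 3′UTR peaks alone, peaks of at least 4-fold and a reciprocal overlap of 50%.

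Of the 103 symbols, 101 matched RefSeq (Rnf219 and Rnf227 did not), and 79 had a promoter window. RefSeq lists 68 protein-coding TRIM genes, 39 of them with a peak, and 83 RNF genes, 62 of them with a peak. Genes were named by rule: in each family the 6 strongest in WT, up to 4 found in 1 list alone and the 5 largest differences in each direction, all members of the interferon-induced TRIM and innate immune RNF lists, and the 2 strongest of each other list. Other genes, named to complete a group or a count, were chosen after their values were seen. Members, lists and rules were chosen with earlier results of these data known. Cgas and Sting1 stand for the older symbols first listed. The values of 1 RNF gene are not reported here, though the counts and medians include it.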

Additional observations from a re-analysis of the deposited data

How the results depend on the processing

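Of the alternatives, peaks of at most 1000 bases moved the median differences most. These peaks were also weaker, with a WT median of 1.07 in TRIM and 0.88 in RNF genes. By strongest peaks of any span it was 2.10 and 1.57, so span and strength cannot be told apart here. With peaks of at most 1000 bases the median difference was -0.0592 for TRIM, -0.0504 for RNF and -0.0538 for all genes. By those peaks 4 TRIM (12.9%) and 2 RNF genes (4.00%) were lower by 1 or more, beside 4.40% of all genes. The share with a peak in both lists was 86.1% for TRIM and 83.3% for RNF, beside 74.6% of all genes. With peaks of at least 4-fold alone that share was 19.0% for TRIM (4 of 21) and 30.4% for RNF (7 of 23). Averaged over all peaks of a gene, the median was -0.26 for TRIM, -0.19 for RNF and -0.17 for all genes. By that average 4 TRIM (10.5%) and 2 RNF genes (3.28%) were lower by 1 or more, beside 5.46% of all genes. Centred on the median of all genes, the RNF median was -0.14, and 5 TRIM and 3 RNF genes were lower by 1 or more. A reciprocal overlap of 50% left 45.8% of TRIM and 54.7% of RNF peaks of WT shared. For the 4-fold, centred and 50% settings no share of all genes or peaks is given here, so their counts have no background. Of the named genes lower by 1 or more, 3 reversed by short peaks, Ring1 to a difference of 0.47, Rnf146 to 0.0689 and Trim2 to 0.12, and by the strongest overlapping pair Trim17 reversed to 0.0203. The cause was not tested. The medians moved little with the stricter adjusted p (-0.63 for TRIM, -0.40 for RNF), the overlapping pair (-0.55, -0.38), 3′UTR peaks alone (-0.56, -0.31) or, for TRIM, without the 4 chromosome 7 paralogs (-0.74), an alternative chosen after seeing the data. Leaving out a library was not run, because the lists hold no values per library. No paired analysis was possible because the values carry no replicate numbers.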
